A study of Homo sapiens with 6 samples.

Results

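The genes described here are *HSF1* and 9 genes of its cytosolic chaperone network, chosen by name (*HSPA1A*, *HSPA1B*, *HSPA8*, *HSP90AA1*, *HSP90AB1*, *HSPB1*, *HSPH1*, *DNAJB1* and *BAG3*). They were chosen with earlier results of these data known. Each of the 10 names had 1 row among the 20381 genes of the count table, and all 10 passed the filter on low counts, which kept 11958 genes. RNA-seq was performed on poly(A) RNA of HCCLM3, an established human HCC cell line, in 3 libraries of a stable line that overexpresses *PON1* (PON1-OE) and 3 libraries of its negative control (NC). PON1 is a lipid-associated esterase made in the liver. For PON1-OE its coding sequence was delivered by lentivirus, for NC the design text names a lentivirus with an empty vector, and both lines were selected with puromycin. No promoter of the vector is named, and neither the labels nor the methods say whether the lines were pools or clones or whether the replicates were separate cultures, so that errors and p-values measure the spread between these libraries. The methods give 10% serum, while the design text gives 15% serum and lysis 24 h after transfection.

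Heat shock proteins are chaperones that hold, fold and refold other proteins. HSF1 is the transcription factor that switches on their genes when misfolded proteins accumulate. In unstressed cells HSF1 is held back by the chaperones themselves, it binds arrays of a short repeat called the heat shock element when it is released, and many tumor cells keep part of this program active. In the HSP70 cycle a J-domain protein such as DNAJB1 hands over the client, HSP70 (HSPA1A, HSPA1B or HSPA8) binds it, and a nucleotide exchange factor such as HSPH1 or BAG3 lets it go. HSP90 (HSP90AA1, HSP90AB1) acts later, on kinases and receptors near their folded state, and the small heat shock protein HSPB1 holds unfolded clients without ATP.

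The NC libraries held 0, 2 and 3 counts of *PON1*, and the PON1-OE libraries 155, 181 and 167, as their labels require. The totals of estimated counts were 15706672 to 17948383 per library. HNF4A and the keratins KRT8 and KRT18 were well expressed (means in NC of 78.6, 2410 and 1528 CPM, after TMM normalization as everywhere here). Of 5 epithelial markers 4 were over 1 CPM in NC, among them *CDH1* with 14.3 and *KRT19* with 3.97 CPM, while *EPCAM* had 0.173 CPM. Of 8 hepatocyte and HCC markers 3 were over 1 CPM, namely *HNF4A*, *TF* and *APOB*. For *TF* the NC mean was 21.3 CPM against 19.0 for PON1-OE, and for *APOB* 5.77 against 4.49 CPM. The others, *ALB*, *AFP*, *APOA1*, *SERPINA1* and *TTR*, which define differentiated hepatocytes or HCC, were each under 1 CPM in both groups. Of 5 leukocyte markers 4 had no count in any library. Of 5 fibroblast markers 1 (*DCN*) and of 4 endothelial markers 2 (*PECAM1* and *KDR*) were over 1 CPM. The summed levels were 3.64 to 4.97 CPM in NC against 4.47 to 7.07 CPM in PON1-OE for fibroblast markers and 21.9 to 24.6 CPM in NC against 25.1 to 27.8 CPM in PON1-OE for endothelial markers, and their part in the results was not tested. In such bulk RNA, fewer cells with a transcript and less of it per cell cannot be told apart.

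The 2 genes of stress-inducible HSP70, *HSPA1A* and *HSPA1B*, fell in PON1-OE, by 14.4% each of the NC mean. None of the other members passed the test. For 6 of them, all chaperones or their partners, the mean differed from NC by −11.0% to −4.62%, and for *HSF1* and *BAG3* by 0.453% and 1.17%. The test was edgeR's quasi-likelihood test, with p-values adjusted over all tested genes by the Benjamini-Hochberg method, and a gene is called here at an adjusted p under 0.05. By this rule 2 of the 10 members were called, both lower, where 0.176% of all genes tested were called lower, 0.502% higher and 0.677% in either direction. Among genes with a mean over 100 CPM, as all members have, 0.223% were called lower. With a change of more than 1.5-fold required as well, no member was called, against 0.0502% of all genes.

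**Figure D1:**
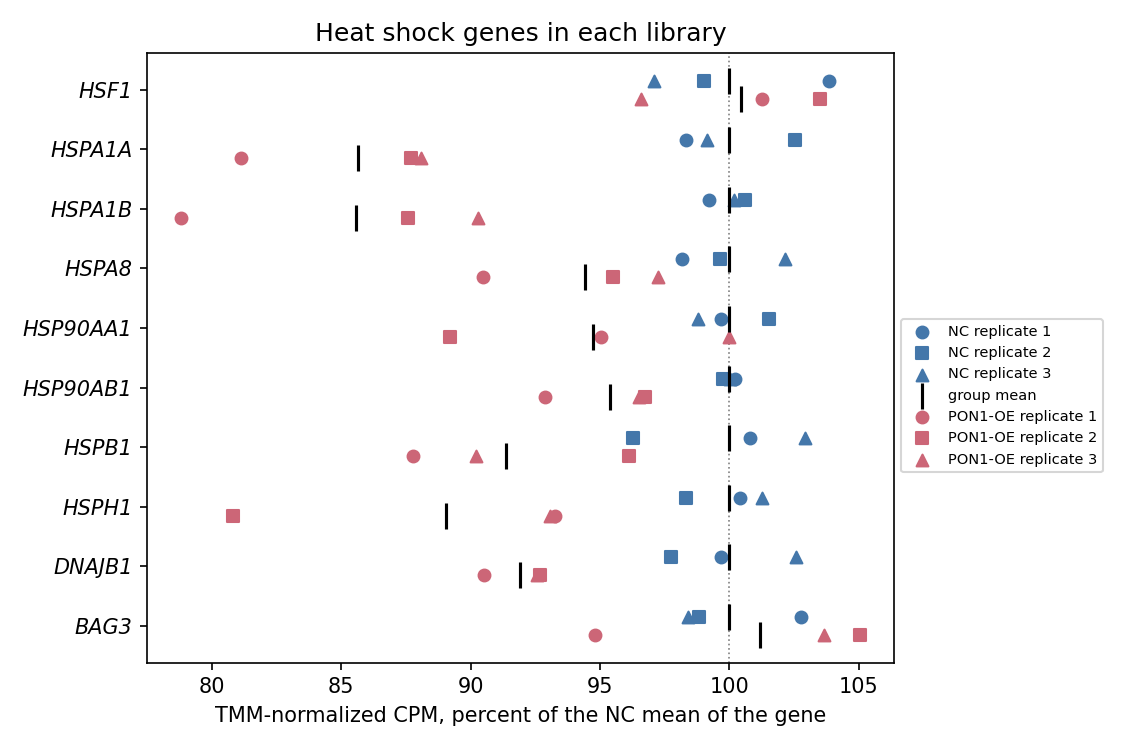
Level of each of the 10 genes in each library (x axis: TMM-normalized CPM as a percentage of the NC mean of that gene; symbols: the 3 NC libraries in blue and the 3 PON1-OE libraries in red; vertical bars: group means). In 7 genes all PON1-OE libraries lie below all NC libraries, and *HSF1*, *HSP90AA1* and *BAG3* overlap.

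HSF1 binds promoters, and sequences are shown for the 7 genes with letters of its element near a start. The promoter windows of RefSeq (GRCh38.p14, 250 bases before to 50 after each start) held 14 windows for 9 of the 10 genes, since some genes have several starts. The motif of 3 inverted units (GAANNTTCNNGAA or TTCNNGAANNTTC, which covers both strands) was found in 3 of these 14 windows, against 0.490% of 35116 windows in all. These 3 belong to *HSPA8*, *HSP90AA1* and *HSP90AB1*. The motif of 2 units (GAANNTTC or TTCNNGAA), which is also contained in each motif of 3 units, was found in 8 of the 14 windows and in 7 of the 9 genes, against 13.5% of all windows and 16.2% of all genes. The 2 genes without it were *HSPH1* and *BAG3*, and *HSF1* had no window. Only exact letters within these windows were searched, so that imperfect or more distant elements were not covered. A match describes the letters of these windows and not a bound site. Also found but not printed below were a match of 3 units in *HSPA8*, at −230 to −218 from the start, and a match of 2 units in *DNAJB1*, at 1 to 8 from another start. The stretches around matches, with the matches in capitals, read 5′ to 3′ on the strand of the gene:
HSPA1A (chr6:31815412-31815469, plus strand): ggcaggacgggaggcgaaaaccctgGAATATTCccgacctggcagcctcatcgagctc
HSPA1B (chr6:31827608-31827665, plus strand): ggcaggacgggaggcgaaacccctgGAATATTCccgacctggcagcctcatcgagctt
HSPA8 (chr11:123062171-123062199, minus strand): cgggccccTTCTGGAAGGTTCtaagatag
HSP90AA1 (chr14:102087104-102087133, minus strand): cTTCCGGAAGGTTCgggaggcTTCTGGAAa
HSP90AB1 (chr6:44247753-44247868, plus strand): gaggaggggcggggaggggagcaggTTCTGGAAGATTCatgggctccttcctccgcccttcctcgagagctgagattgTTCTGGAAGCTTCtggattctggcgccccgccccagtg
HSPB1 (chr7:76302466-76302523, plus strand): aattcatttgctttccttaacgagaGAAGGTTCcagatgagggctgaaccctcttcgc
DNAJB1 (chr19:14518412-14518499, minus strand): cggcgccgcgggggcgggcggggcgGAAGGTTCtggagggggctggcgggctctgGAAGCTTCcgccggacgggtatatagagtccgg

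In GENCODE v29, also on GRCh38, the *HSPA1B* and *HSPB1* stretches lie upstream of the gene, and the *HSPA1A* stretch does except for its last 6 bases. The *HSP90AB1* and *DNAJB1* stretches lie inside the annotated gene, with 3 of 116 and 9 of 88 bases in exons, as the annotated gene begins further upstream. The *HSPA8* and *HSP90AA1* stretches lie wholly in an exon of such a transcript. The *HSPA1A* and *HSPA1B* promoters are near copies, with 235 of 251 aligned positions identical (93.6%) over the 250 bases before the start.

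*HSF1* (ENSG00000185122, chromosome 8, 144291591 to 144314722, plus strand) had 137, 131 and 128 CPM in NC replicates 1 to 3, against 134, 137 and 127 CPM in the PON1-OE libraries with the same numbers. The groups overlapped. The log2FC was 0.0069 (standard error 0.045), with a 95% interval from −0.087 to 0.10 and an adjusted p of 0.974 in edgeR. Its sign turned with the scaling, to −0.0037 without TMM, and when single libraries were left out. These values are mRNA levels, and HSF1 is controlled largely as a protein, which was not measured in these libraries.

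*HSPA1A* (ENSG00000204389, chromosome 6, 31815464 to 31817946, plus strand) encodes the HSP70 that is made on stress. Its level was 496, 517 and 500 CPM in NC against 409, 442 and 444 CPM in PON1-OE. The highest PON1-OE library stayed below the lowest NC library. The mean was 504 ± 11.3 CPM for NC and 432 ± 19.7 CPM for PON1-OE (SD, 3 libraries each). The log2FC was −0.22 (standard error 0.038, 95% interval −0.30 to −0.15) with an adjusted p of 0.00682 in edgeR. Over all alternatives the adjusted p lay between 1.11e-05 and 0.0523, the latter without NC replicate 3, where the log2FC was −0.23.

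*HSPA1B* (ENSG00000204388, chromosome 6, 31827735 to 31830255, plus strand), the neighboring copy, had 283, 287 and 286 CPM in NC against 225, 250 and 258 CPM in PON1-OE. The groups were again separate, with PON1-OE replicate 1 the lowest. The means were 286 ± 2.03 and 244 ± 17.1 CPM (SD, 3 libraries each), and the log2FC was −0.23 (standard error 0.044, adjusted p = 0.0187 in edgeR). The adjusted p was 0.0745 without NC replicate 1, 0.132 without NC replicate 3 and 0.0968 without PON1-OE replicate 1, where the log2FC was −0.17. It ranged from 0.000192 to 0.132 over all alternatives.

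The rows of *HSPA1A* and *HSPA1B* are not independent measurements. Both genes are a single exon, and 71.3% of the 50-base words of the *HSPA1A* transcript also occur in *HSPA1B* in GENCODE v29. The deposited counts of both carry decimals, and their sum was a whole number in each of the 6 libraries within a tolerance of 0.005, between 10417 and 14550. Fractions of reads had thus been assigned to the 2 rows. *HSPA1A* received 63.3% to 64.5% of the sum, with no difference between the groups beyond their spread. Summed before the fit, the pair had 779, 804 and 786 CPM in NC against 634, 692 and 702 CPM in PON1-OE. This is a fall of 14.4% of the mean, with a log2FC of −0.22 (standard error 0.038) and an adjusted p of 0.00726 in the same test. The sum lost its call without NC replicate 3 (adjusted p = 0.0565, log2FC −0.23), where 11 genes in all were called instead of 81. The 2 calls among the members therefore rest in part on shared reads and are not 2 independent results.

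**Figure D2:**
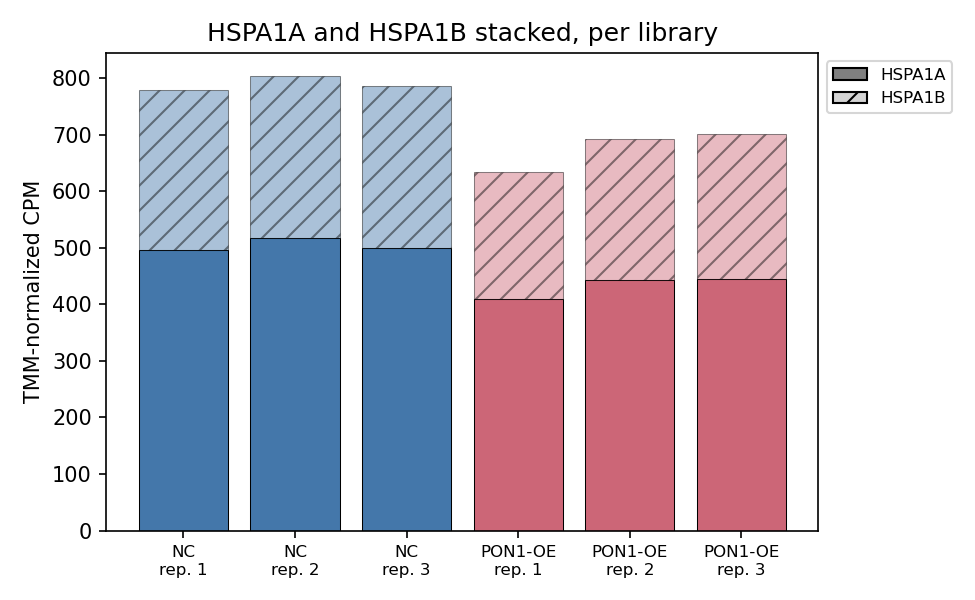
Levels of *HSPA1A* (solid) and *HSPA1B* (hatched) stacked for each library (y axis: TMM-normalized CPM). The stacks reach 779 to 804 CPM in NC against 634 to 702 CPM in PON1-OE, while the share of *HSPA1A* is near 64% in each.

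*HSPA8* (ENSG00000109971, chromosome 11, 123057489 to 123063230, minus strand) encodes the constitutive HSP70, which serves the cell without stress. It had 2409, 2445 and 2507 CPM in NC against 2220, 2343 and 2386 CPM in PON1-OE. The groups were separate, although NC replicate 1 and PON1-OE replicate 3 were close. The log2FC was −0.083 (standard error 0.032, unadjusted p = 0.0182, adjusted p = 0.330 in edgeR). Without PON1-OE replicate 1 it was −0.050, with an unadjusted p of 0.152. The ratio of *HSPA1A* and *HSPA1B* counts to *HSPA8* counts within a library, which does not depend on scaling, was 0.323, 0.329 and 0.314 in NC against 0.286, 0.295 and 0.294 in PON1-OE. It was lower in each PON1-OE library than in any NC library, and its mean changed by −9.37%.

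*HSP90AA1* (ENSG00000080824, chromosome 14, 102080738 to 102139699, minus strand), the more stress-responsive of the cytosolic HSP90 genes, had 1150, 1171 and 1139 CPM in NC against 1096, 1029 and 1153 CPM in PON1-OE. PON1-OE replicate 3 lay among the NC libraries. Its log2FC was −0.078 (standard error 0.037, adjusted p = 0.446 in edgeR). It was −0.035 when PON1-OE replicate 2 was left out and −0.12 when replicate 3 was. *HSP90AB1* (ENSG00000096384, chromosome 6, 44246166 to 44253888, plus strand), the constitutive form, had 2240, 2230 and 2236 CPM in NC against 2076, 2163 and 2157 CPM in PON1-OE. Here the groups were separate, and the SD of the NC libraries was 5.20 CPM. Its log2FC was −0.068 (standard error 0.030, adjusted p = 0.397). The ratio of *HSP90AA1* to *HSP90AB1* counts overlapped between the groups, with 0.513, 0.525 and 0.510 in NC against 0.528, 0.476 and 0.535 in PON1-OE.

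*HSPB1* (ENSG00000106211, chromosome 7, 76302544 to 76304295, plus strand) had 370, 353 and 377 CPM in NC against 322, 352 and 331 CPM in PON1-OE. The groups were separate only by the small step from NC replicate 2 to PON1-OE replicate 2. Its log2FC was −0.13 (standard error 0.040, adjusted p = 0.184 in edgeR), and without PON1-OE replicate 2 it was −0.17 with an adjusted p of 0.0384. This was the only alternative that called it, and the adjusted p was highest without NC replicate 3, at 0.564.

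*HSPH1* (ENSG00000120694, chromosome 13, 31134974 to 31162388, minus strand), the HSP110 that exchanges the nucleotide of HSP70 and takes part in disaggregation, had 178, 174 and 180 CPM in NC against 165, 143 and 165 CPM in PON1-OE. The groups were separate, and PON1-OE replicate 2 stood below the other two, which were nearly equal. The log2FC was −0.17 (standard error 0.049, adjusted p = 0.157 in edgeR), or −0.10 without PON1-OE replicate 2.

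*DNAJB1* (ENSG00000132002, chromosome 19, 14514770 to 14529770, minus strand), the J-domain partner of inducible HSP70, had 373, 366 and 384 CPM in NC against 339, 347 and 347 CPM in PON1-OE. The groups were separate and both narrow. Its log2FC was −0.12 (standard error 0.035), with an adjusted p of 0.151 in edgeR and 0.0435 in DESeq2. DESeq2 was the only alternative that called it, and in edgeR without NC replicate 3 the adjusted p was 0.528.

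*BAG3* (ENSG00000151929, chromosome 10, 119651370 to 119677819, plus strand), which links HSP70 to selective autophagy and is itself an HSF1 target, had 115, 111 and 110 CPM in NC against 106, 117 and 116 CPM in PON1-OE. The groups overlapped, with the highest and the lowest library both in PON1-OE. The log2FC was 0.017 (standard error 0.048, 95% interval −0.084 to 0.12, adjusted p = 0.936 in edgeR).

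**Figure D3:**
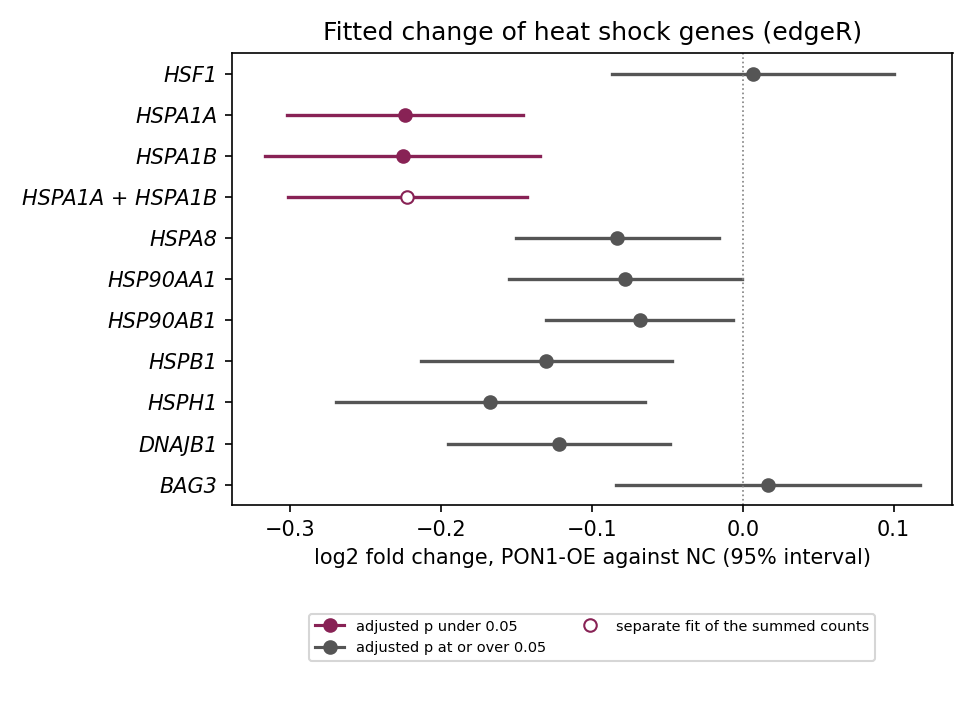
Fitted log2 fold change of PON1-OE against NC for each of the 10 genes and for the summed *HSPA1A* and *HSPA1B* counts (points: estimate; lines: 95% interval from edgeR). *HSPA1A*, *HSPA1B* and their sum lie near −0.22, and the intervals of *HSF1* and *BAG3* include 0.

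Without adjustment 8 of the 10 members had a p under 0.05 and a lower level, where 5.17% of all genes tested did, and no member had such a p with a higher level, against 5.91%. Among the 2239 genes over 100 CPM the share with a lower level was 6.92%. In 7 members the groups were separate with PON1-OE lower, against 7.74% of all genes and 8.84% of the genes over 100 CPM. No member had the opposite order, against 8.32% of all genes. The count of 8 was 5 without NC replicate 3 or without PON1-OE replicate 1. The members were chosen with earlier results of these data known, and the count at an unadjusted p was chosen after seeing the data. These counts are therefore a description and not independent support. *HSPA1A* and *HSPA1B*, whose rows are not independent, enter them as separate members. The median log2FC of the members was −0.10, against −0.0025 over all genes tested. The 10 genes together took 0.775% to 0.786% of all counts in NC and 0.710% to 0.746% in PON1-OE.

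The members did not follow one order among the PON1-OE libraries. PON1-OE replicate 1 was the lowest of the 3 for 7 members, among them *HSPA1A*, *HSPA1B*, *HSPA8* and *HSP90AB1*, while *HSP90AA1* and *HSPH1* were lowest in replicate 2. Over the 6 libraries the log2 CPM of *HSP90AB1* had a Pearson r of 0.96 with *HSPA1A* and 0.99 with *HSPA1B*, and that of *HSP90AA1* a Pearson r of 0.88 with *HSPH1*. *HSP90AA1* and *HSPB1* had an r of 0.18. These are descriptions over 6 libraries that share the group difference, the scaling and the depth. The 5 other genes whose log2 CPM followed the mean of the members most closely were *PAFAH1B2*, *AHDC1*, *EFCAB14*, *KIF1C* and *NUP62*, with Pearson r of 0.98 to 0.99 over the 6 libraries.

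Per kb of annotated exon, which allows levels to be compared between genes, the highest was *HSP90AB1* (750 ± 1.74 CPM per kb in NC; SD, n = 3), followed by *HSPA8* with 506 ± 10.2. *HSPB1* with 224 ± 7.63 and *HSP90AA1* with 220 ± 3.09 did not differ beyond their spread. *HSPA1A* followed with 203 ± 4.54, *HSPA1B* with 113 ± 0.804 and *DNAJB1* with 102 ± 2.48. *BAG3* had 40.7 ± 0.975, *HSF1* 24.9 ± 0.865 and *HSPH1* 21.2 ± 0.320 CPM per kb in NC. In PON1-OE *HSP90AA1* (208 ± 11.9) and *HSPB1* (205 ± 9.66) changed places within their spread. *HSPA1B* (96.9 ± 6.80) and *DNAJB1* (93.8 ± 1.23) did not differ beyond their spread there, and the order of the other means was the same as in NC. The lengths are those of all exons merged, which lowers genes with many transcripts such as *HSPH1*, and the split between *HSPA1A* and *HSPA1B* is the authors' estimate. By CPM *HSPA8* ranked 21 and *HSP90AB1* 28 among the 20381 genes.

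**Figure D4:**
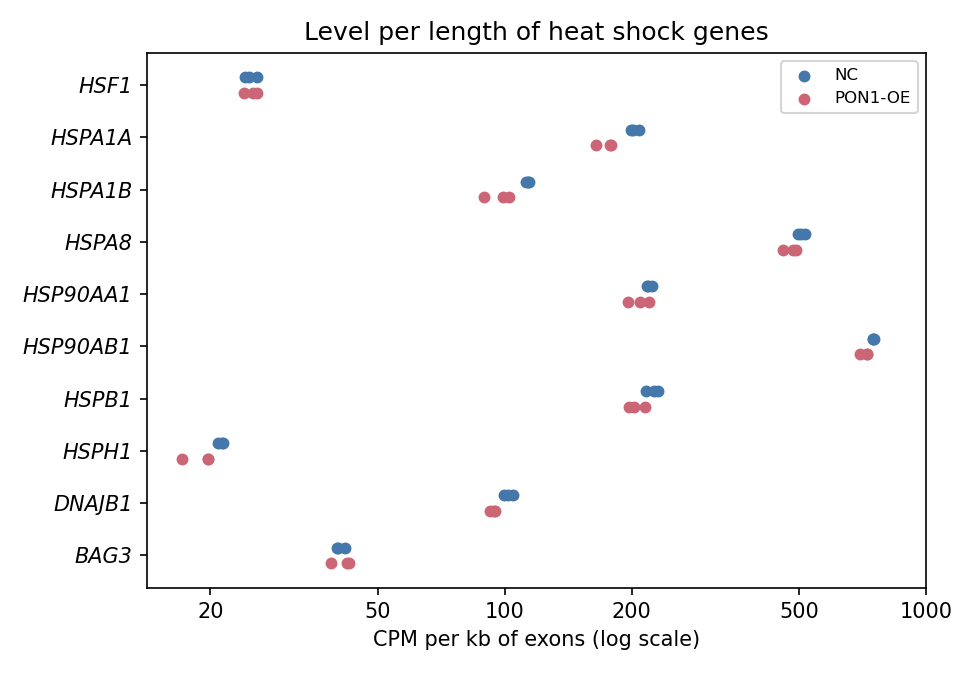
Level per length of the 10 genes (x axis: CPM per kb of merged exons, log scale; points: the 3 NC libraries in blue and the 3 PON1-OE libraries in red). The levels run from near 20 for *HSPH1* to 750 for *HSP90AB1*.

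Reads of some members can also belong to other genes. Of the 50-base words, 16.6% of *HSP90AB1*, 11.3% of *HSP90AA1*, 8.23% of *HSPA8* and 5.84% of *HSPB1* occur in transcripts of other genes in GENCODE v29. The genes that shared most of them were, in this order, *HSP90AB3P*, *HSP90AA2P*, *HSPA8P1* and *HSPB1P1*, all outside the count table. *HSF1*, *HSPH1* and *BAG3* share no such word. On the same strand *HSPA1B* shares 920 exonic bases with *AL671762.1*, which is outside the table. On the opposite strand *DNAJB1* shares 211 exonic bases with *TECR*, *HSP90AA1* 197 with *WDR20* and *HSF1* 139 with *DGAT1*, and whether counting used strand is not given in the sources used here.

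The other genes of the chaperone system were taken from 8 lists by role, with 120 genes, 118 of them in the table and 107 tested. None of the 107 was called in either direction by edgeR, where 0.677% of all genes were. Without adjustment 15 had a p under 0.05, 11 lower and 4 higher, where 5.17% of all genes tested were lower and 5.91% higher by this rule. The groups were separate with PON1-OE lower in 18 of the 107 genes, against 7.74% of all genes tested. They were separate with PON1-OE higher in 7, against 8.32%. DESeq2 and limma-voom also called none, edgeR without the filter on low counts called 2 (*PFDN4* lower and *PLK1* higher), and *PFDN4* was called without NC replicate 2. The median log2FC of the 107 genes was −0.027.

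Among HSF family genes and regulators of HSF1, 14 of 15 were tested, with a median log2FC of −0.030, 7 above and 7 below 0. *VCP*, the ATPase that extracts ubiquitinated proteins, had 708 ± 11.5 CPM in NC against 722 ± 25.6 CPM in PON1-OE. *RPA1*, a single-stranded DNA binding protein that can assist HSF1, had 159 ± 10.1 and 152 ± 5.24 CPM. Chosen after the values were seen, *PLK1*, a mitotic kinase that also phosphorylates HSF1, had a log2FC of 0.23 (adjusted p = 0.149 in edgeR), and it passed in a fit without the filter.

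Other HSP70 and HSP110 genes and exchange factors had a median of −0.021, with 15 of 17 tested, 7 above and 8 below 0. *ST13*, which steadies the ADP state of HSP70, had 299 ± 16.2 and 288 ± 6.84 CPM, and *HSPA4*, an HSP110 relative, 284 ± 6.71 and 278 ± 12.0 CPM. *HSPA6*, a strictly inducible HSP70 that is nearly silent without stress, was chosen after its values were seen. The NC libraries held 8, 9 and 2 of its counts and the PON1-OE libraries 10, 15 and 11, so that the groups were separate in the direction opposite to *HSPA1A*. Its log2FC was 1.01 (standard error 0.51, adjusted p = 0.473 in edgeR), and at these counts NC replicate 3 was under a floor of 3 counts.

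Of the cytosolic J-domain proteins 16 of 18 were tested, 11 of them below 0, with a median of −0.049. *DNAJA1*, an HSP70 partner that HSF1 also induces, had 609 ± 13.7 and 582 ± 15.4 CPM (log2FC −0.064, adjusted p = 0.515 in edgeR). *DNAJC5*, a vesicle J-domain protein, had 210 ± 2.10 and 214 ± 5.84 CPM.

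All 20 HSP90 co-chaperones were tested, and 14 were below 0, with a median of −0.026. Without adjustment 4 had a p under 0.05 and a lower level, against 5.17% of all genes tested, and 0 a higher level, against 5.91%. *PTGES3*, which stabilizes the closed HSP90, had 1052 ± 16.3 and 1028 ± 14.5 CPM. *STIP1*, which joins HSP70 to HSP90, had 1047 ± 30.8 and 1002 ± 20.8 CPM. Chosen after the values were seen, *AHSA1*, the activator of the HSP90 ATPase, had a log2FC of −0.11 (adjusted p = 0.266 in edgeR).

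Only 1 of 9 further small heat shock proteins passed the filter. This was *HSPB8*, a partner of BAG3, with 214 ± 8.05 and 201 ± 15.5 CPM. The TRiC chaperonin and prefoldin, which fold actin and tubulin, had 14 of 14 tested and a median of −0.0019. Without adjustment 3 had a p under 0.05 in edgeR and a lower level, against 5.17% of all genes tested. A higher level by this rule was found in 0, against 5.91%. *CCT3* had 1247 ± 23.9 and 1188 ± 38.9 CPM, and *CCT7* 545 ± 4.47 and 550 ± 24.8 CPM. The prefoldin subunit *PFDN4*, chosen after its values were seen, had the lowest adjusted p of all 107 genes (0.0743 in edgeR, log2FC −0.29).

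In the other compartments, 12 of 12 mitochondrial chaperones were tested, 9 of them below 0, with a median of −0.046. *HSPA9*, the mitochondrial HSP70, had 1258 ± 4.44 and 1242 ± 21.2 CPM, and *HSPD1*, the mitochondrial chaperonin, 723 ± 6.11 and 692 ± 25.2 CPM. All 15 ER chaperones were tested, with a median of 0.0066 and 8 above 0. Without adjustment 3 had a p under 0.05 and a higher level, against 5.91% of all genes tested, and 0 a lower level, against 5.17%. *P4HB*, a disulfide isomerase, had 2425 ± 38.5 and 2539 ± 36.2 CPM (log2FC 0.066, adjusted p = 0.406 in edgeR), and *HSPA5*, the ER HSP70, 1094 ± 27.1 and 1125 ± 38.0 CPM. Differences between the lists were not tested.

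**Figure D5:**
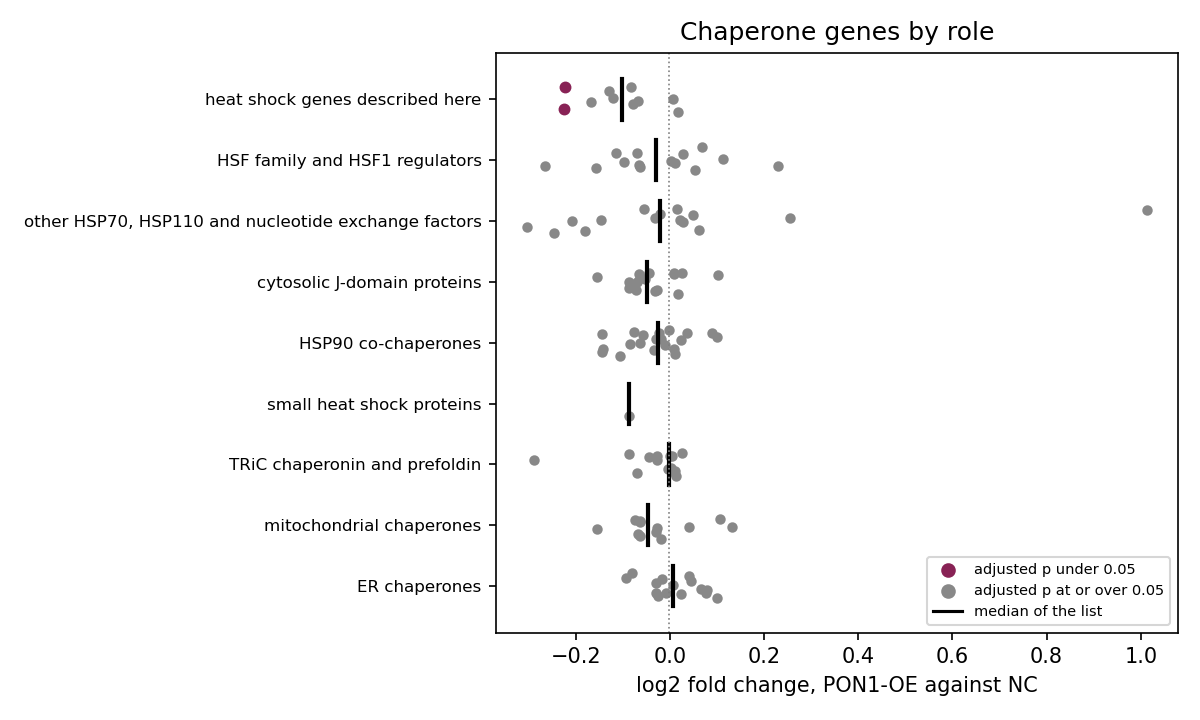
Fitted log2 fold change of PON1-OE against NC for each tested gene of the chaperone system by role (points: genes, spread vertically at random; bars: medians; dotted line: median of all genes tested). The 2 called genes are *HSPA1A* and *HSPA1B* in the first row, whose median is −0.10. The medians of the 8 lists lie between −0.088 and 0.0066, and the lowest is that of the small heat shock proteins, with 1 tested gene.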

How the data were processed

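RNA-seq libraries from poly(A) RNA were sequenced on an Illumina instrument. The authors deposited 1 table of estimated counts for 20381 genes in 6 libraries, not normalized, in which 10.5% of values were not whole. The submitters' processing notes name Bowtie2 2.2.8, HISAT2, StringTie 1.3.1 and DESeq2 without roles, and the genome build and annotation are not given in the sources used here. Counts were rounded and tested with edgeR 4.0.16 in R 4.3.3 (filterByExpr, TMM, glmQLFit and glmQLFTest, PON1-OE against NC, no covariate, Benjamini-Hochberg over 11958 genes). Library totals were 15706672 to 17948383, and each member had at least 1741 rounded counts per library. A floor of 3 counts was 0.166 to 0.192 CPM, which covers counting error only. Replicate pairs differed by more than sampling noise (chi-square per degree of freedom 2.11 to 4.11). Alternatives were RLE size factors, no TMM, other filters, DESeq2 1.42.0, limma-voom (limma 3.58.1), a replicate block, each library left out and a fold threshold. Positions and exons came from GENCODE v29 and promoters from RefSeq. Fits were tested on simulated counts. The members and gene lists were chosen with earlier results of these data known. The text names all members, PON1, and in each list up to 4 called genes and the 2 with the highest CPM, and the 5 other genes most correlated with the mean of the members. Cell type markers and genes that overlap a member are named besides, and chaperone genes chosen after their values were seen are marked so.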

Additional observations from a re-analysis of the deposited data

How the results depend on the processing

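With single libraries left out, the genes called numbered 11 to 103 instead of 81, the members called 0 to 3 instead of 2 and the other chaperone genes called 0 to 1 instead of 0. The members called were 0 without NC replicate 3, 1 (*HSPA1A*) without NC replicate 1 or PON1-OE replicate 1, and 3 (with *HSPB1*) without PON1-OE replicate 2. Dropping the low-count filter gave 177 called genes, *HSPH1* with them, and 2 other chaperone genes, *PFDN4* lower and *PLK1* higher. Requiring a change over 1.5-fold left 6 genes and 0 members. With the replicate number as a block 40 genes were called, and the 81 include 39 of them, and *HSPA1A* and *HSPA1B* kept their call. The labels do not say whether the numbers pair the libraries. Same-numbered libraries had correlations of −0.023 to 0.020 between their deviations from the group means, and differently numbered ones −0.094 to 0.071. With 3 libraries per group these values cannot decide whether the libraries were paired. *HSF1* and *BAG3* turned sign, *HSF1* to −0.0037 without TMM and to between −0.014 and 0.035 without single libraries, *BAG3* to between −0.010 and 0.065. The log2FC of the 8 other members stayed negative under every alternative. *HSPA1A* and *HSPA1B* were called with RLE size factors, without TMM, in DESeq2 and in limma-voom. DESeq2 gave *PON1* no adjusted p. The scaling without TMM, the summed *HSPA1A* and *HSPA1B* without single libraries, the ratios and the count at an unadjusted p were chosen after seeing the data.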
